A study of Homo sapiens with 12 samples.

Results

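The 9 genes described here encode enzymes that make asparagine, glutamine, glutamate, aspartate, alanine and proline, together with the mitochondrial enzyme that turns oxaloacetate into phosphoenolpyruvate. They were taken by name from the deposited table, namely ASNS, GLUL, GLUD1, GOT1, GOT2, GPT2, ALDH18A1, PYCR1 and PCK2, and are 9 of its 58302 genes. All 9 were found once and all 9 passed the filter on low counts. The series measured polyadenylated RNA in 2 human glioma cell lines, U251 and U87, with 3 libraries in each of 4 groups. These were U251 with artesunate at 180 µM, U251 in control medium, U87 with artesunate at 24.08 µM, and U87 in control medium. The artesunate samples had 24 h of treatment, all samples are labelled day 9, and the control label names the medium with no solvent. Artesunate is a derivative of the antimalarial artemisinin. The dose differed between the lines, and its part in any comparison of the lines cannot be told apart from that of the line. The extraction text names artemisinin where the sample labels name artesunate. Each line is 1 established culture, and the labels do not say whether the 3 libraries of a group came from separate cultures, so p-values measure the spread between these libraries, which may be technical.

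Glutamate stands at the centre of this set. It gives its amino group to oxaloacetate and pyruvate through aminotransferases, forming aspartate and alanine, it takes up ammonia to form glutamine, and its carbon chain is the source of proline. Asparagine synthetase joins aspartate to the amide nitrogen of glutamine. Cells short of amino acids or under mitochondrial or oxidative stress raise several of these enzymes through the transcription factor ATF4, for which ASNS is a classic target gene, and astrocytes are known for high glutamine synthetase.

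Library totals ran from 13631985 to 17314284 counts, and Pearson's r of log2 CPM (read counts scaled to library size with TMM factors) across genes between libraries of 1 group was 0.985 to 0.987, except in U87 with artesunate, where it was 0.972 to 0.981. In U87 with artesunate, genes with GC-rich transcripts were low against genes with GC-poor ones. The median log2 deviation from the control mean of the same line, GC-richest 20% of genes minus GC-poorest 20%, was -2.08, -1.30 and -1.95 in U87 artesunate libraries 1, 2 and 3, and -0.21, 0.14 and 0.06 in the U87 controls. It was 0.24 to 0.50 in U251 with artesunate and -0.03 to 0.06 in U251 controls. Of 12 astrocyte and glioma markers 9 were tested. Their summed level overlapped between the artesunate and control libraries of each line, but VIM, with 56651 to 109078 counts, makes up most of it. Single markers stood apart: NES had 145 to 194 counts in U87 with artesunate and 1140 to 1256 in U87 controls, EGFR had 3478 to 3897 and 5259 to 5661 in the same libraries, and SLC1A3 had 474 to 632 and 947 to 1073. OLIG2 went the other way, with 90 to 118 counts in U87 with artesunate and 37 to 65 in U87 controls. PDGFRA had 416 to 467 counts in U251 with artesunate and 702 to 778 in U251 controls. CD44 went the other way there, with 17529 to 18735 counts with artesunate and 15411 to 16738 in controls. GFAP had 668 to 1514 counts in U251 libraries and 10 to 30 in U87 libraries, and SOX2 was at 0 in all U87 libraries. OLIG2, in contrast, had 0 to 4 counts in U251 libraries and 37 to 118 in U87 libraries. The summed level of 4 microglia and leukocyte markers was 31.0 to 60.5 CPM in U87 with artesunate and 73.2 to 115 CPM in U87 controls and, in the other direction, 3.77 to 6.60 CPM in U251 with artesunate and 1.065 to 3.165 CPM in U251 controls, with AIF1 at 0 in all 12 libraries. That of 4 epithelium markers was 2.41 to 5.33 CPM in U87 with artesunate and 6.005 to 7.07 CPM in U87 controls. The part of these marker levels in the results was not tested.

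The promoters of 7 of the 9 genes are in the RefSeq table used here (build GRCh38.p14), as windows of 300 bases that run from 250 bases before a transcript start to 50 bases after it. GPT2 and PYCR1 have no entry there. The windows were searched on both strands for TGATGNAAN, the form of the C/EBP-ATF response element that ATF4 binds, and for the cAMP response element TGACGTCA. ASNS and GOT1 held a match to the first, and none of the 9 windows of the 7 genes held the second. In ASNS the match began 68 bases before the start and read TGATGAAAC. In GOT1 it lay on the other strand, beginning 199 bases before the start. Of 34943 windows of this length in the table, 3.62% held a TGATGNAAN match and 1.84% held TGACGTCA. A match is only a description of the letters. The windows of PCK2, GLUL and GLUD1, whose transcripts also rose in U87 before any adjustment, held no match. GOT1, with its match, was not called in U251. The windows of ASNS and GOT1, whose transcripts had the 2 largest rises among these enzymes in U87 before any adjustment, are printed here with the match in capitals, and that of ALDH18A1, whose transcript fell there, is printed beside them. They lie on the minus strand at chr7:97872359-97872658, chr10:99430575-99430874 and chr10:95656662-95656961.

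ASNS: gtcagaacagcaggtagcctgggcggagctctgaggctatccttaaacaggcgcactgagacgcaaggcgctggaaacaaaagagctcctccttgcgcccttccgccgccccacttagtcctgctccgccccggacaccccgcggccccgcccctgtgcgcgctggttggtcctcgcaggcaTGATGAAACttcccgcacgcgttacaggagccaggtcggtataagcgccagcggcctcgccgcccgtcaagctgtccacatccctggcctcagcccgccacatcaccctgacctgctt
GOT1: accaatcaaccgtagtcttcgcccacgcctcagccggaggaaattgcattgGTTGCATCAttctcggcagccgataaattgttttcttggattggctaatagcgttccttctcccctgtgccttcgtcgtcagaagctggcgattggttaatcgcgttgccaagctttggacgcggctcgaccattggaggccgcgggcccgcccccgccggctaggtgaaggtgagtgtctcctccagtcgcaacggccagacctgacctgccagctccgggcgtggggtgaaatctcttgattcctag
ALDH18A1: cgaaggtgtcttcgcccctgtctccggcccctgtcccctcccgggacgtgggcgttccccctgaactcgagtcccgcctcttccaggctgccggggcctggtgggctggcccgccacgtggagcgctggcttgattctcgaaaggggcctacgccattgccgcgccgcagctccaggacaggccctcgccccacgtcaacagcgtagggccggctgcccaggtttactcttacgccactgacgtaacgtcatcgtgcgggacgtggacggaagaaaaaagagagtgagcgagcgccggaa

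The first question was what artesunate did to these transcripts in U251. ASNS, PCK2 and PYCR1 rose, and the other 6 were not called: 3 of 9 rose, against 4.09% of the 17150 tested genes, and 0 of 9 fell, against 4.26%. Calls here are from edgeR's quasi-likelihood test, at p under 0.05 after Benjamini-Hochberg adjustment over all tested genes. GOT2 was 1 of 9 lower at an unadjusted p under 0.05, and DESeq2 called it lower. Of all 17150 tested genes, 4051 had an unadjusted p under 0.05 in either direction, and DESeq2 called 1245 lower. The median log2 fold change of the 9 genes was 0.01, against 0 over all tested genes. A bulk measurement does not tell less RNA per cell from fewer cells that make it.

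In U87 ASNS, GOT1, GLUL, PCK2 and GLUD1 rose and ALDH18A1 fell. These are 5 of 9 that rose, against 29.2% of all tested genes, and 1 of 9 that fell, against 29.2%. The median log2 fold change of the 9 genes was 0.28, against 0 over all tested genes. With 10005 of 17150 tested genes called in U87, the number of calls alone says little there.

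**Figure D1:**
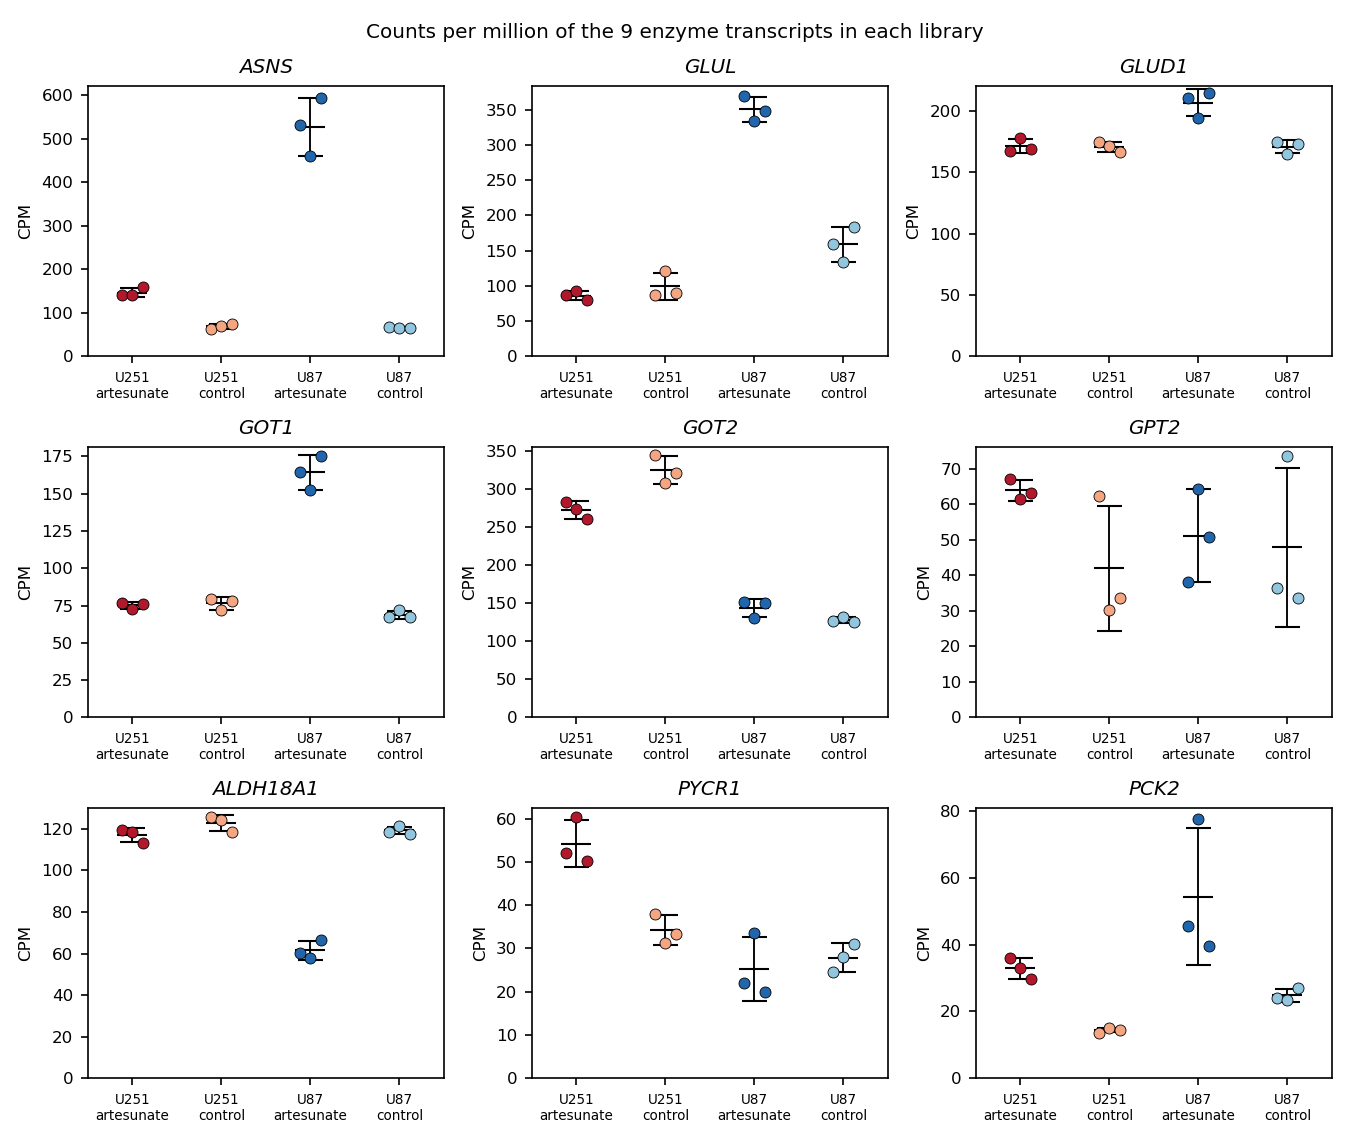
TMM-scaled CPM of each of the 9 transcripts in the 12 libraries, with U251 artesunate, U251 control, U87 artesunate and U87 control from left to right; points are libraries, and the bar and whiskers are the mean and SD of 3. ASNS reached 460.1 to 593 CPM in the U87 artesunate libraries and lay between 61.9 and 74.6 CPM in both control groups.

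**Figure D2:**
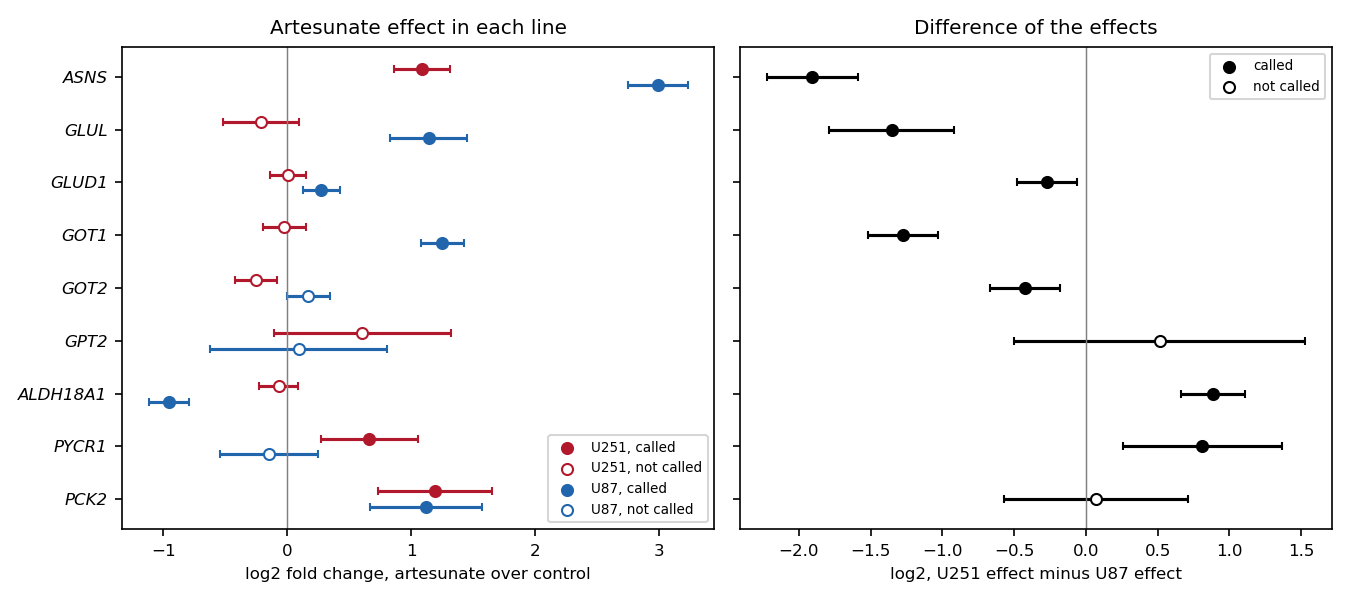
Log2 fold changes, artesunate over control, in U251 and U87 (left) and the U251 effect minus the U87 effect (right); whiskers are 95% intervals of the quasi-likelihood fit, and filled points were called at adjusted p under 0.05. ASNS rose in both lines and by more in U87, while ALDH18A1 and GOT1 were called in U87 and not in U251.

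ASNS (ENSG00000070669, chromosome 7, 97852118 to 97872542, GRCh38) encodes asparagine synthetase. It stood at 140.0, 140.2 and 158 CPM in U251 with artesunate, against 61.9, 69.7 and 74.6 CPM in U251 controls. In U87 it stood at 530.4, 460.1 and 593 CPM with artesunate, against 66.5, 66.2 and 66.1 CPM in controls. All artesunate libraries lay above all controls in both lines, and the 2 control groups overlapped. The log2 fold change was 1.09 ± 0.10 in U251 (± standard error, n = 3 libraries a group; edgeR adjusted p = 1.0e-04) and 2.99 ± 0.11 in U87 (adjusted p = 1.1e-08), an increase of 2.13-fold and 7.97-fold. The U251 effect was smaller than the U87 effect by a log2 difference of -1.91 ± 0.15 (edgeR adjusted p = 3.9e-06). Between the controls the log2 difference, U251 minus U87, was 0.05 with a 95% interval from -0.17 to 0.28, and it was not called.

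GLUL (ENSG00000135821, chromosome 1, 182381704 to 182392206) encodes glutamine synthetase, which makes the glutamine that ASNS uses as its nitrogen donor. It had 369, 334 and 348 CPM in U87 with artesunate, against 160, 133 and 183 CPM in U87 controls. In U251 it had 86.6, 92.4 and 79.4 CPM with artesunate, against 86.8, 122 and 90.6 CPM in controls. The U87 groups did not overlap and the U251 groups did. In U87 the log2 fold change was 1.14 ± 0.14 (edgeR adjusted p = 3.1e-05), and in U251 it was -0.21 with a 95% interval from -0.52 to 0.10 (adjusted p = 0.41). The difference of the effects, U251 minus U87, was -1.35 ± 0.20 (edgeR adjusted p = 0.00019). GLUL was also lower in U251 controls than in U87 controls, by a log2 difference of -0.67 ± 0.14 (edgeR adjusted p = 0.0012).

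GLUD1 (ENSG00000148672, chromosome 10, 87050486 to 87094866) encodes the mitochondrial glutamate dehydrogenase, which interconverts glutamate and 2-oxoglutarate. Its level was the steadiest of the set: 167 to 178 CPM in U251 with artesunate, 166 to 175 CPM in U251 controls, 194 to 215 CPM in U87 with artesunate and 165 to 175 CPM in U87 controls. Only the U87 artesunate libraries stood apart from the rest. The log2 fold change was 0.28 ± 0.07 in U87 (edgeR adjusted p = 0.0041) and 0.01 in U251 with a 95% interval from -0.14 to 0.15. In a fit adjusted for the GC content and length of transcripts the U87 value was 0.10 and was no longer called (adjusted p = 0.12). The difference of the effects, -0.27 ± 0.10 (edgeR adjusted p = 0.035), was -0.05 in that fit (adjusted p = 0.69). It also lost its call with no filter on low counts (adjusted p = 0.27) and in 8 of 12 fits that left out 1 library, all but those without U251 control 3, U251 artesunate 2, U87 control 1 or U87 artesunate 2 (adjusted p up to 0.12). Reads of GLUD1 are less certain than those of the other enzymes: the near-identical GLUD2 had 211 to 411 counts per library, SHLD2, whose span overlaps GLUD1, had 627 to 1169, and the strand setting of the counting is not given in the sources used here.

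GOT1 and GOT2 encode the cytosolic and the mitochondrial aspartate aminotransferase, the pair of the malate-aspartate shuttle. GOT1 (ENSG00000120053, chromosome 10, 99396870 to 99430624) had 165, 152 and 176 CPM in U87 with artesunate, against 67.3, 72.1 and 67.4 CPM in U87 controls. In U251 it had 77.0, 72.7 and 75.9 CPM with artesunate, against 79.6, 71.7 and 78.0 CPM in controls, so that the groups were apart in U87 and overlapped in U251. GOT1 rose by 1.25 ± 0.08 on the log2 scale in U87 (edgeR adjusted p = 2.9e-07), and its log2 fold change in U251 was -0.02 with a 95% interval from -0.20 to 0.15. The difference of the effects was -1.28 ± 0.11 (edgeR adjusted p = 7.9e-06).

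GOT2 (ENSG00000125166, chromosome 16, 58707131 to 58734357) differed mainly between the lines. It had 283, 274 and 260.4 CPM in U251 with artesunate, against 344, 309 and 321 CPM in U251 controls, and 152, 130.5 and 150.4 CPM in U87 with artesunate, against 127, 132 and 125 CPM in U87 controls. It was higher in U251 than in U87 controls by 1.34 ± 0.08 (log2, edgeR adjusted p = 3.4e-08), a ratio of 2.54. The log2 fold change with artesunate was -0.25 ± 0.08 in U251 (adjusted p = 0.071) and 0.17 ± 0.08 in U87 (adjusted p = 0.082), neither of them called, while the difference between these effects, -0.42 ± 0.11, was called (edgeR adjusted p = 0.0075). The U251 value was called lower with DESeq2 (adjusted p = 0.019) and in a fit of the U251 libraries alone (adjusted p = 0.029). It was -0.27 and called in the GC-adjusted fit (edgeR adjusted p = 0.031). Scaling to total counts, each FPKM fit and the fit without U87 artesunate library 2 called it too. The other fits without 1 library did not. The range of adjusted p over the alternatives was 0.012 to 0.21. The U87 value was called in the GC-adjusted fit (adjusted p = 0.010) and without artesunate library 2 (adjusted p = 0.012), with a range from 0.010 to 0.35.

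Per transcript length, the cytosolic and mitochondrial enzymes stood in a different ratio in each group. GOT1 over GOT2, from the authors' FPKM in each library, was 0.541, 0.529 and 0.581 in U251 with artesunate and 0.460, 0.463 and 0.484 in U251 controls. In U87 the ratio was 2.16, 2.33 and 2.33 with artesunate and 1.06, 1.09 and 1.07 in controls. The 4 groups did not overlap in this ratio, for which no test was run.

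GPT2 (ENSG00000166123, chromosome 16, 46884378 to 46931297) encodes the mitochondrial alanine aminotransferase. It varied widely between the control libraries of each line. It had 67.2, 61.4 and 63.3 CPM in U251 with artesunate, against 62.3, 30.3 and 33.6 CPM in U251 controls, and 38.2, 64.4 and 50.7 CPM in U87 with artesunate, against 36.3, 73.7 and 33.7 CPM in U87 controls. Control 1 of U251 and control 2 of U87 were each well above the other 2 libraries of their group. The log2 fold change was 0.61 ± 0.33 in U251 (edgeR adjusted p = 0.29) and 0.09 ± 0.33 in U87 (adjusted p = 0.84). Without control 1 the U251 value was 1.02 (adjusted p = 0.11), and without control 2 the U87 value was 0.54 (adjusted p = 0.15), so neither was called. The 95% interval in U251 ran from -0.11 to 1.32.

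The 2 enzymes of proline synthesis did not move together. ALDH18A1 (ENSG00000059573, chromosome 10, 95605929 to 95656706) encodes pyrroline-5-carboxylate synthase, which starts the route from glutamate. It had 60.2, 57.9 and 66.5 CPM in U87 with artesunate, against 119, 121 and 118 CPM in U87 controls. In U251 it had 119, 119 and 113 CPM with artesunate, against 126, 124 and 118 CPM in controls. The U87 artesunate group stood at about the ratio 0.516 of its control, and the other 3 groups overlapped. ALDH18A1 fell by 0.95 ± 0.07 on the log2 scale in U87 (edgeR adjusted p = 1.0e-06), had a log2 fold change of -0.07 in U251 with a 95% interval from -0.23 to 0.09, and the difference of the effects was 0.89 ± 0.10 (edgeR adjusted p = 4.3e-05). The GC-adjusted fit gave -0.95 in U87.

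PYCR1 (ENSG00000183010, chromosome 17, 81932384 to 81942412) encodes the mitochondrial pyrroline-5-carboxylate reductase, which completes proline. It had 52.0, 60.3 and 50.2 CPM in U251 with artesunate, against 38.0, 31.3 and 33.3 CPM in U251 controls, and these groups were apart. In U87 it had 22.0, 33.6 and 19.9 CPM with artesunate, against 24.5, 28.1 and 31.1 CPM in controls, and these groups overlapped. PYCR1 rose by 0.66 ± 0.18 in U251 on the log2 scale (edgeR adjusted p = 0.044), a call near the threshold that was lost in 9 of 12 fits without 1 library, among them each of the 6 without a U251 library and each of the 3 without a U87 control (adjusted p from 0.0043 to 0.16 over the 12 fits), and also with no filter on low counts (adjusted p = 0.068) or with scaling to total counts (adjusted p = 0.060). In the GC-adjusted fit the U251 value was 0.43 and still called (edgeR adjusted p = 0.029). With the replicate block as well the call was lost (edgeR adjusted p = 0.12). In U87 the log2 fold change of PYCR1 was -0.15 ± 0.18 (edgeR adjusted p = 0.51). Without U87 artesunate library 2 it was -0.42 and was called lower (adjusted p = 0.017), and in the GC-adjusted fit it was 0.98 and was called higher (adjusted p = 2.6e-05), so no direction is given for PYCR1 in U87. The difference of the effects was 0.81 ± 0.25 (edgeR adjusted p = 0.019). It turned to -0.55 in the GC-adjusted fit (adjusted p = 0.019), and its call was lost without U251 control 2 (adjusted p = 0.051) and without U251 artesunate library 2 (adjusted p = 0.054).

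PCK2 (ENSG00000100889, chromosome 14, 24094053 to 24110598) encodes mitochondrial phosphoenolpyruvate carboxykinase, which draws oxaloacetate, the partner of aspartate, out of the mitochondrial pool. It had 36.0, 33.0 and 29.8 CPM in U251 with artesunate, against 13.6, 14.9 and 14.6 CPM in U251 controls. In U87 it had 45.6, 77.7 and 39.6 CPM with artesunate, against 24.1, 23.5 and 27.1 CPM in U87 controls. The groups did not overlap in either line, and artesunate library 2 of U87 stood well above the other 2. PCK2 rose by 1.19 ± 0.21 in U251 (log2, edgeR adjusted p = 0.0055) and by 1.12 ± 0.21 in U87 (adjusted p = 0.00060). Without U87 artesunate library 2 the U87 value was 0.76 (adjusted p = 0.00012). In the GC-adjusted fit the log2 fold change was 2.21 in U87 (edgeR adjusted p = 1.4e-07) and 0.95 in U251 (adjusted p = 0.00063). The difference of the effects was 0.07 with a 95% interval from -0.57 to 0.71, and it was not called. It was -1.26 in the GC-adjusted fit (adjusted p = 0.00026) and 0.42 without U87 artesunate library 2 (adjusted p = 0.035). PCK2 was lower in U251 controls than in U87 controls by a log2 difference of -0.79 ± 0.21 (edgeR adjusted p = 0.0058), with -0.29 in the GC-adjusted fit, where the call was lost (adjusted p = 0.052).

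**Figure D3:**
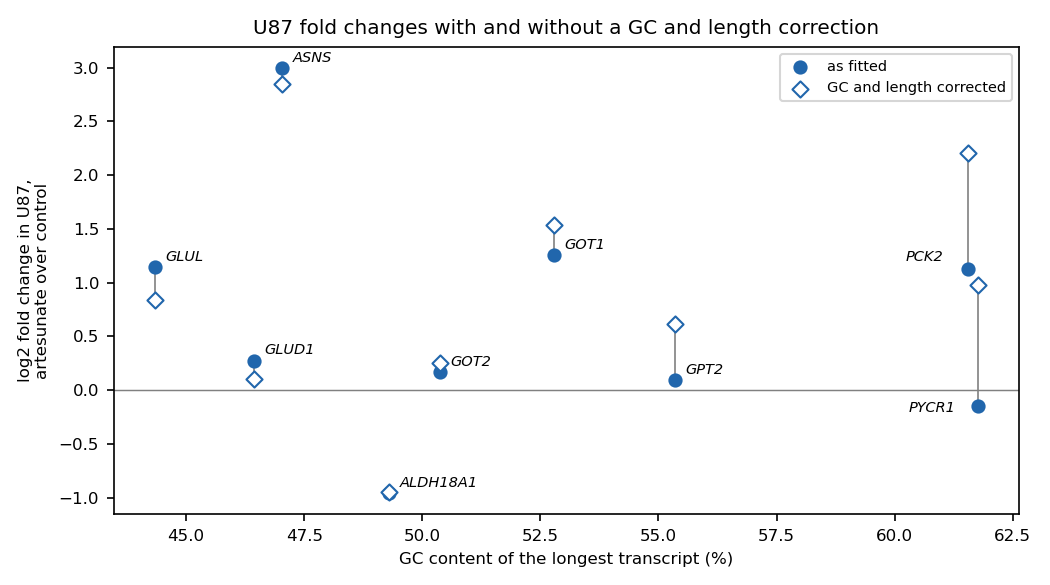
Log2 fold change in U87, artesunate over control, against the GC content of the longest transcript; filled points are as fitted, open diamonds are from the fit adjusted for GC content and length, and a line joins the 2 values of a gene. The shift is largest for PYCR1 (61.8% GC) and PCK2 (61.6% GC).

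The GC content of the longest transcript was 61.8% for PYCR1, 61.6% for PCK2 and 55.4% for GPT2; it was 44.3% for GLUL, 46.4% for GLUD1, 47.0% for ASNS, 49.3% for ALDH18A1, 50.4% for GOT2 and 52.8% for GOT1. U87 artesunate library 2, which had the smaller GC shift of -1.30, was the highest of its group for PYCR1, PCK2 and GPT2 and the lowest for ASNS, GLUL, GLUD1, GOT1, GOT2 and ALDH18A1. In the adjusted fit the U87 log2 fold change was 2.85 for ASNS, 1.54 for GOT1, 0.84 for GLUL and -0.95 for ALDH18A1, and these 4 kept their calls. The part of GC content in the U87 and U251 values was not tested further.

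Set over all 9 genes, the effects differed between the lines for 7 before GC adjustment. ALDH18A1 and PYCR1 had the higher value in U251 (2 of 9, against 24.1% of all tested genes). ASNS, GLUL, GLUD1, GOT1 and GOT2 had the lower (5 of 9, against 25.3%). In the GC-adjusted fit PYCR1 was called the other way (-0.55), PCK2 was called lower (-1.26) and GLUD1 was not called (-0.05). The U251 and U87 comparisons share no library. In the controls 1 of 9 was higher in U251 than in U87 (GOT2; 32.5% of all tested genes) and 2 were lower (PCK2 and GLUL; 32.3%). With artesunate in both lines, at their different doses, 3 were higher in U251 (PYCR1, ALDH18A1 and GOT2; 36.3%) and 5 were lower (ASNS, PCK2, GOT1, GLUL and GLUD1; 35.9%). The largest of these was GLUL, with a log2 difference, U251 minus U87, of -2.02 ± 0.15, followed by ASNS with -1.85 ± 0.10 (edgeR adjusted p = 1.5e-07 and 2.0e-08). GPT2 was called in none of the 5 comparisons, with unadjusted p from 0.09 to 0.781. In the GC-adjusted fit the GLUD1 difference between the artesunate groups, -0.27, was -0.07 and not called (adjusted p = 0.22), while PYCR1, ALDH18A1 and GOT1 were called higher in U251 than in U87 controls, at 0.86, 0.16 and 0.46.

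Levels can be compared between genes only per length, for which the authors' FPKM values were used. In both control groups GOT2, GLUD1, GOT1 and ALDH18A1 were the abundant transcripts, at 20.8 to 52.0 FPKM on average, and ASNS, PYCR1, GLUL, GPT2 and PCK2 lay at 1.25 to 7.77 FPKM. With artesunate ASNS reached 53.0 ± 5.80 FPKM in U87 (mean ± SD, n = 3), next to GLUD1 at 51.6 ± 1.66 and GOT1 at 50.6 ± 2.75, and these 3 overlapped. ASNS in U87 controls was at 7.002 ± 0.079 FPKM. In U251 with artesunate ASNS was at 14.8 ± 1.26 FPKM and stayed below ALDH18A1 at 22.6 ± 0.35 FPKM, while in U251 controls ASNS was at 7.14 ± 0.67 FPKM. PCK2 was the lowest of the 9 in U251, with 2.79 ± 0.24 FPKM with artesunate and 1.25 ± 0.06 FPKM in controls.

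**Figure D4:**
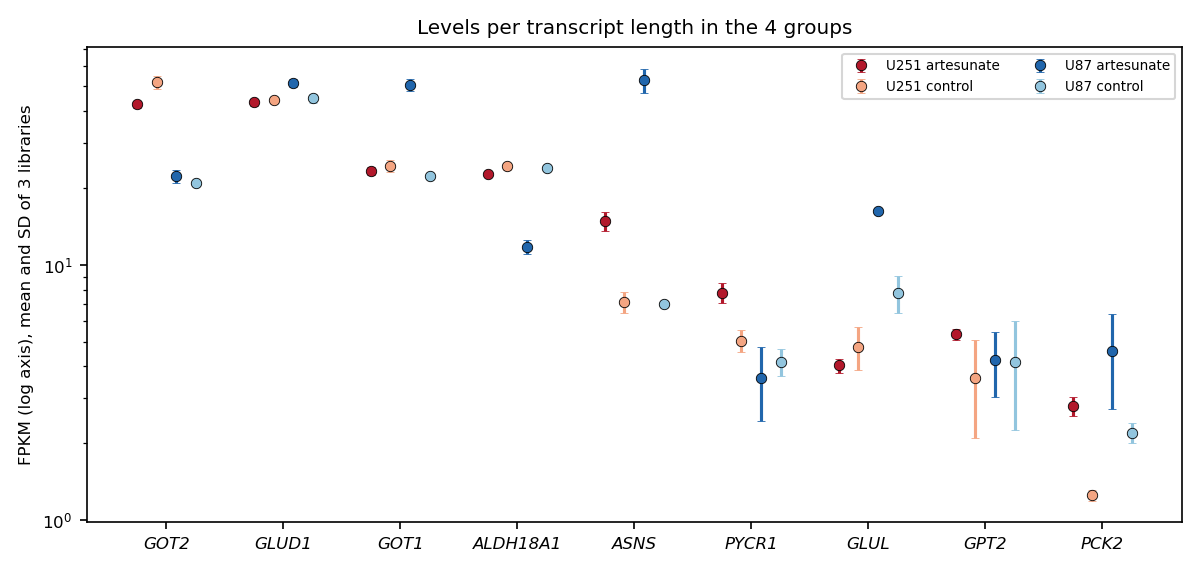
The authors' FPKM of the 9 transcripts on a log axis, mean and SD of 3 libraries, in U251 artesunate, U251 control, U87 artesunate and U87 control; genes are ordered by their U251 control level. ASNS in U87 with artesunate reached the level of GLUD1 and GOT1.

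The balance of asparagine to glutamine synthetase transcripts moved the same way in both lines. ASNS over GLUL in FPKM was 3.496, 3.28 and 4.31 in U251 with artesunate, against 1.54, 1.24 and 1.78 in U251 controls. It was 3.11, 2.98 and 3.69 in U87 with artesunate, against 0.901, 1.07 and 0.780 in U87 controls. All 6 artesunate libraries lay above all 6 control libraries, while GLUL was called in U87 and not in U251. PYCR1 over ALDH18A1 was 0.325, 0.378 and 0.330 in U251 with artesunate, against 0.225, 0.188 and 0.209 in U251 controls, and 0.272, 0.432 and 0.222 in U87 with artesunate, against 0.153, 0.172 and 0.196 in U87 controls. No test was run on these ratios.

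The other genes around these enzymes were read from 6 lists with 58 names, of which 57 were in the table and 45 were tested. In U251, 1 of 45 rose (4.09% of all tested genes) and 1 fell (4.26%). In U87, 11 rose (29.2%) and 22 fell (29.2%), and the median log2 fold change of the 45 was -0.39. In the GC-adjusted fit 6 were called higher and 13 lower in U87. The same fit called 4124 of all 17150 tested genes higher and 3714 lower. Of the 33 genes called before adjustment, 16 were then not called, and 8 of these had the opposite sign: OAT, DARS, ME2, PPAT and QRSL1, which had been higher, were at -0.03 to -0.23, and ASS1, ASL and NADSYN1, which had been lower, were at 0.09 to 0.28. No direction is given for these 8, and the counts by list that follow are before adjustment. They are to be read beside the same shares of all tested genes, 4.09% and 4.26% in U251 and 29.2% each way in U87. At an unadjusted p under 0.05 stood 4051 of 17150 genes in U251 and 10678 in U87, in either direction. DESeq2 called 1083 higher and 1245 lower in U251, and 5013 higher and 5107 lower in U87. In U251 the gene that rose was ARG2, the mitochondrial arginase, by 0.53 ± 0.12 (log2, edgeR adjusted p = 0.020), a call lost without U251 control 1 or 2 or artesunate library 2 or 3 (adjusted p from 0.057 to 0.081). The gene that fell was UCP2, a carrier of the mitochondrial inner membrane, by 0.73 ± 0.19 (edgeR adjusted p = 0.041). The UCP2 call was lost with no filter (adjusted p = 0.10) and in 7 of 12 fits without 1 library, namely U251 control 1, 2 or 3, U251 artesunate 1 or 2, or U87 control 2 or 3 (adjusted p up to 0.15). ARG2 rose in U87 too, by 1.88 ± 0.12 (edgeR adjusted p = 2.6e-07).

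Of 6 tested enzymes of proline and ornithine outside the 9, 1 rose and 0 fell in U251, and 2 rose and 3 fell in U87. PYCR3, which encodes a further pyrroline-5-carboxylate reductase, fell by 3.36 ± 0.31 in U87 (log2, edgeR adjusted p = 3.5e-06), and by 2.15 in the GC-adjusted fit.

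Of 8 tested enzymes of glutamate and glutamine, 0 were called in U251 by edgeR, where 1 was lower at an unadjusted p under 0.05 and by DESeq2, and 2 rose and 2 fell in U87. OPLAH, which makes glutamate from 5-oxoproline, fell by 1.97 ± 0.59 in U87 (log2, edgeR adjusted p = 0.013), with -0.49 and no call in the GC-adjusted fit (adjusted p = 0.49). Of 6 tested enzymes of asparagine, aspartate and argininosuccinate, 0 were called in U251 by edgeR or DESeq2, where 1 was higher at an unadjusted p under 0.05, and 2 rose and 2 fell in U87. ADSS, of adenylosuccinate synthesis, rose by 0.65 ± 0.18 (edgeR adjusted p = 0.0082), but its GC-adjusted value, 0.19, was not called (adjusted p = 0.32). ASL, argininosuccinate lyase, was at -0.72 ± 0.10 on the log2 scale (adjusted p = 9.3e-05), but its GC-adjusted value was 0.22, with the sign turned and no call (adjusted p = 0.099).

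Of 6 tested enzymes of pyruvate, oxaloacetate and malate around PCK2, 0 were called in U251 by edgeR, where 2 were lower at an unadjusted p under 0.05 and by DESeq2, and 2 rose and 3 fell in U87. MDH1, the cytosolic malate dehydrogenase of the shuttle, rose by 0.38 ± 0.09 in U87 (log2, edgeR adjusted p = 0.0033), and by 0.18 in the GC-adjusted fit. ME3, a mitochondrial malic enzyme, fell by 2.25 ± 0.57 (adjusted p = 0.0049), at a low level of 0.15, 0.15 and 0.38 CPM in U87 with artesunate and 0.90, 1.63 and 0.87 CPM in U87 controls. Its GC-adjusted value was -1.59 (adjusted p = 0.040), and the call was lost with a replicate block as well (adjusted p = 0.074). PC, the pyruvate carboxylase that makes oxaloacetate, was picked after its values were seen, and had a log2 fold change of -1.20 ± 0.19 in U87 (edgeR adjusted p = 0.00017), which became -0.15 in the GC-adjusted fit (adjusted p = 0.23). PCK2 over PC in FPKM was 1.02, 1.00 and 0.979 in U251 with artesunate, against 0.530, 0.513 and 0.540 in U251 controls, and 2.82, 2.57 and 2.09 in U87 with artesunate, against 0.472, 0.472 and 0.549 in U87 controls.

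Of 9 mitochondrial carriers, mainly of aspartate, glutamate, malate and ornithine, 1 fell in U251 and 6 fell in U87 by edgeR. Over all tested genes 4.26% and 29.2% fell. The carrier counts were the same by DESeq2 and at an unadjusted p under 0.05, and 0 carriers rose in either line. SLC25A22, a mitochondrial glutamate carrier, fell by 2.21 ± 0.41 in U87 (log2, edgeR adjusted p = 0.00064), and by 1.02 in the GC-adjusted fit. Of the 10 enzymes that use the glutamine amide, 0 were called in U251 by edgeR, where 1 was higher and 2 lower at an unadjusted p under 0.05 and DESeq2 called 1 lower, and 3 rose and 6 fell in U87. GFPT1, which starts hexosamine synthesis, rose by 2.43 ± 0.09 (edgeR adjusted p = 1.2e-08), and PFAS, of purine synthesis, fell by 2.18 ± 0.19 (adjusted p = 2.7e-06). In the GC-adjusted fit these were 1.77 and -1.38.

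**Figure D5:**
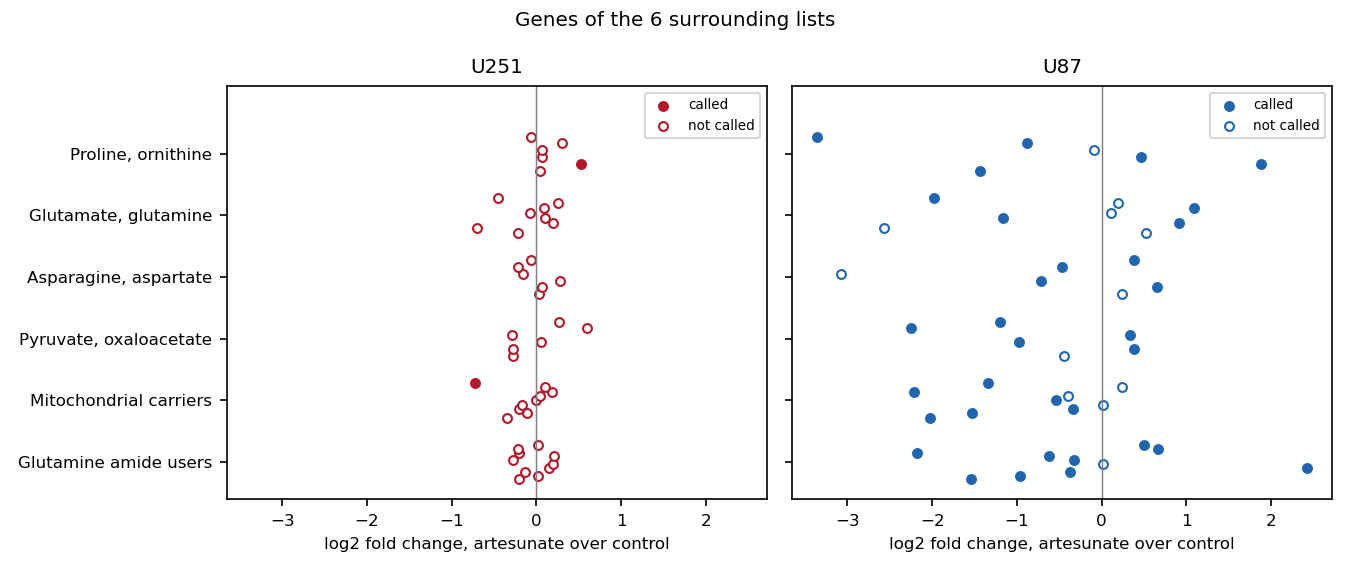
Log2 fold changes, artesunate over control, of the 45 tested genes of the 6 surrounding lists in U251 (left) and U87 (right); filled points were called at adjusted p under 0.05. In U251 1 gene rose and 1 fell, and in U87, before GC adjustment, 11 rose and 22 fell.

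Among 9612 protein-coding genes, all those at or above 3 in mean log2 CPM, the 5 whose log2 CPM followed ASNS most closely over the 12 libraries were ZRANB1, GARS, ZNF697, ETV5 and SLC38A1, with Pearson's r from 0.986 to 0.990. GARS, the glycyl-tRNA synthetase, averaged 427 and 265 CPM in U251 with artesunate and in U251 controls, and 901 and 243 CPM in U87 with artesunate and in U87 controls. SLC38A1, a glutamine and alanine transporter, averaged 390.2 and 246 CPM in U251 with artesunate and in U251 controls, and 1612 and 259.5 CPM in U87 with artesunate and in U87 controls. For GLUL the 5 closest were ANAPC13, TRIQK, SMIM19, ZNF24 and GTF3C4, with r from 0.982 to 0.985. ZNF24, a zinc finger protein, averaged 42.4 and 43.5 CPM in U251 with artesunate and in U251 controls, and 196 and 85.4 CPM in U87 with artesunate and in U87 controls. These coefficients describe 12 libraries in 4 groups that share a line or a treatment, so they rest largely on the group means.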

How the data were processed

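RNA-seq libraries of U251 and U87 glioma cells were analysed from the deposited gene table. Per the series text and the submitters' processing notes, reads were filtered (fastp), aligned to GRCh38 (HISAT2 2.1.0) and quantified (StringTie 1.3.3b), and edgeR 3.30.3 gave the authors' comparisons. The deposited counts are whole numbers per gene with no normalization seen in the values. The deposited FPKM values were, per the labels' series text, made by the authors following TMM normalization. How the counts were made is not given in the sources used here.

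Counts were analysed with edgeR 4.0.16 in R 4.3.3. Of 35237 genes with a count, filterByExpr (minimum count 10, minimum total 15) kept 17150. The quasi-likelihood fit used TMM factors, all 12 libraries and a mean for each group. A standard error is the size of the log2 fold change divided by the root of F, and 95% intervals use the degrees of freedom of the fit. The GC-adjusted fit used splines on GC content and length of the longest GENCODE transcript, known for 99.6% of tested genes. Alternatives were DESeq2 1.42.0, limma 3.58.1 on log2(FPKM + 1) and log2(FPKM + 0.1), other scalings, no filter, a replicate block and leaving out each library. The fits were also run on simulated counts with a common spread, no GC trend and changes in U251 artesunate alone. Such counts cannot show how the GC-adjusted fit does under the GC shift seen in U87.

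The 9 genes and the surrounding lists were chosen with earlier results of these data known. Named list genes were, in each line, the called gene with the largest rise and the largest fall per list; PC was added after its values were seen, and a gene that the rule names is not reported here. Genes most like ASNS and GLUL were the 5 with the highest Pearson r, with the 9 genes left out.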

Additional observations from a re-analysis of the deposited data

Results flagged for a closer look

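The artesunate effect differed between the lines for 7 of the 9 genes, by edgeR's test of the difference itself (U251 minus U87, log2). The same test called 8478 of all 17150 tested genes, so the number of calls alone says little. For the 7 genes the values were as follows. The difference was -1.91 for ASNS, -1.35 for GLUL, -1.28 for GOT1, -0.42 for GOT2 and -0.27 for GLUD1, and it was 0.89 for ALDH18A1 and 0.81 for PYCR1. The direction was the same under every alternative run for ASNS, GLUL, GOT1, GOT2, GLUD1 and ALDH18A1, and it turned for PYCR1 in the GC-adjusted fit. The GLUD1 call was lost in the GC-adjusted fit, with no filter, and in 8 of 12 fits without 1 library. The PYCR1 call was lost in 2 of those 12. The PCK2 difference was not called in the main fit. It was called at -1.26 in the GC-adjusted fit and, in the other direction, at 0.42 without U87 artesunate library 2. The doses on the labels differ between the lines, and the part of dose cannot be told apart from that of the line.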

How the results depend on the processing

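Of the 9 genes, 3 were called in U251, and 2 to 4 without 1 library; 6 in U87 (6 to 8); 7 for the difference of effects (5 to 8); 3 between the controls (3 to 4), with 5 in the GC-adjusted fit; and 8 between the artesunate groups in all 12 such fits. Over all genes 1431 were called in U251: 652 to 2582 without 1 library, 864 with no filter, 2328 with DESeq2, 2892 with only the 2 groups, 2154 with FPKM + 1 and 885 with a replicate block and GC adjustment. For the difference, 8478 genes were called, 7739 to 9314 without 1 library, 5142 in the GC-adjusted fit and 4458 with the replicate block as well. In U87 10005 of all 17150 tested genes were called, 7838 in the GC-adjusted fit and 7238 with the block as well. Between the controls 11115 were called, and 11431 in the GC-adjusted fit. Between the artesunate groups 12378 were called, and 11810 to 12761 without 1 library. Of the surrounding genes 2 were called in U251: 0 to 7 without 1 library, 5 with total counts, 1 with no filter, 6 with DESeq2, 7 with only the 2 groups, 0 with the replicate block, 5 with block and GC adjustment, 6 with GC adjustment and 5 in each FPKM fit. In U87 33 of them were called, 32 to 34 without 1 library, 19 with GC adjustment and 20 with the block as well.

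Signs turned in the GC-adjusted fit, without and with the replicate block, for PYCR1 in U87 (0.978 and 0.977), ASL in U87 (0.2185 and 0.2105), 7 further surrounding genes in U87 (ME2 at -0.23 and -0.23, DARS at -0.11 and -0.11, PPAT at -0.08 and -0.08, OAT at -0.03 and -0.03, QRSL1 at -0.03 and -0.03, ASS1 at 0.28 and 0.26, NADSYN1 at 0.09 and 0.09; of the 7 ME2 alone was called, with the block, at adjusted p = 0.046), and the differences of PCK2 (-1.26 and -1.25), GPT2 (-0.151 and -0.148) and PYCR1 (-0.548 and -0.546). GPT2 turned between the controls (0.1001) and between the artesunate groups (-0.0512) with GC adjustment, and in U87 GPT2 was called only with GC adjustment and block (0.68, adjusted p = 0.047; up to 1 over the alternatives). The PCK2 difference was -0.0052 with FPKM + 1, filtered or not. Values near 0 turned for GOT1 in U251 (0.0019 with no filter), for GLUD1 in U251 (-0.0285 with total counts, -0.028 with FPKM + 1, filtered or not, -0.0286 with FPKM + 0.1) and for GLUD1 between the controls (-0.0069 with DESeq2 size factors, -0.0244 with total counts, -0.0316 with no filter, -0.007 with DESeq2, -0.0023 with only the 2 groups, -0.0264 with GC adjustment, -0.0233 with FPKM + 1, filtered or not, -0.0237 with FPKM + 0.1). Without 1 library, ranges that cross 0 were -0.0237 to 0.0345 and -0.0368 to 0.0207 for GLUD1 in U251 and between the controls, -0.0727 to 0.0191 for GOT1 in U251, -0.0088 to 0.1013 for ASNS between the controls, -0.1329 to 0.5392 and -0.6082 to 0.2558 for GPT2 in U87 and between the controls, and -0.0957 to 0.4222 for the PCK2 difference. The cause was not tested. Deviations from the group mean had r from -0.0086 to 0.053 between same-numbered artesunate and control libraries of a line. Between differently numbered ones r ran from -0.085 to 0.044. With 3 libraries a group these values cannot settle whether the numbers pair samples. The block alone ended the PYCR1, ARG2 and UCP2 calls in U251 (edgeR adjusted p = 0.069, 0.057 and 0.083). A block could not be fitted for the comparisons of controls and of artesunate groups between lines.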
